A study of Mus musculus with 36 samples.

Results

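The leukotriene and prostaglandin enzymes described here are 9 genes, Alox5, Alox5ap, Lta4h, Ltc4s, Ptgs1, Ptgs2, Ptges, Hpgds and Pla2g7, out of 40354 genes in the count tables. They were chosen by name and role with earlier results of these data known, and all 9 were present in both count tables and both log2 tables and passed the low-count filter. RNA-seq was performed on mouse (C57BL/6J) bone marrow B cells infected with a retrovirus for C/EBPα-ER, the myeloid transcription factor C/EBPα joined to the estrogen receptor domain, with human CD4 as the selection marker. Estradiol (E2) moves the fusion into the nucleus, which sets off the conversion of B cells into macrophages (BMT). Groups were defined by the construct, C/EBPα WT, C/EBPα R35A (arginine 35 replaced by alanine) or C/EBPα R35K (arginine 35 replaced by lysine), and by the time after E2, either before it (0 hr post induction, hpi) or 1, 3, 6, 18 or 120 hr after it, with 2 libraries in each of the 18 groups. Cells of every group, the uninduced ones included, carried a construct and had been grown on inactivated mouse embryonic fibroblast (MEF) feeders in medium with IL-7. The paper proposes that the construct was leaky in uninduced R35A cells, where regulatory elements of B cell genes were more accessible than in WT cells. It reports no altered expression of the associated B cell genes there. The paper describes enrichment of human CD4-positive cells on magnetic columns after growth on feeders. It names feeder depletion for its chromatin accessibility assay and feeder removal by adherence to plastic for a phagocytosis assay. Its RNA-seq section names no feeder removal. Fibroblast RNA was present: 10 fibroblast markers summed to 2303 to 2468 CPM at 0 hpi and 2889 to 5680 CPM at 1 to 18 hpi. The paper calls its RNA-seq replicates biological, but neither it nor the labels say whether the 2 libraries of a group came from separate mice. The p-values below thus measure the spread between these libraries, which may be technical.

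Eicosanoids are short-lived lipid signals made from arachidonic acid after phospholipases free it from membranes. In the leukotriene branch, the lipoxygenase Alox5, helped by the membrane protein Alox5ap (also known as FLAP), makes leukotriene A4, which Lta4h turns into the neutrophil attractant leukotriene B4 and Ltc4s turns into leukotriene C4, the parent of the cysteinyl leukotrienes. In the prostanoid branch, the cyclooxygenases Ptgs1 and Ptgs2 make prostaglandin H2, which terminal synthases such as Ptges (prostaglandin E2) and Hpgds (prostaglandin D2) convert further. Pla2g7 is a secreted phospholipase that destroys platelet-activating factor (PAF), another lipid signal, and is known as a product of macrophages, which are a main source of most of these mediators.

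Levels are given as CPM, read counts scaled to the size of the library by TMM, and changes as log2 fold changes ± SE from an edgeR quasi-likelihood fit over all genes. A change was called, and is described below as a rise or a fall, where it reached 1.5-fold in either direction and its p, adjusted after Benjamini and Hochberg, was no higher than 0.05. Libraries held 13044456 to 23131776 reads on genes. The spread between the 2 libraries of a group, over genes with at least 20 reads in every library, was 1.13 to 3.68 times counting noise (chi-square over its degrees of freedom) in 16 groups and stood apart in WT cells at 6 hpi (18.3 times) and R35K cells at 3 hpi (10.1 times). Leaving out either R35K library or WT replicate 2 of those groups changed no call for the 9 genes, and leaving out WT replicate 1 of 6 hpi ended 1 call (Ptges in R35K minus WT cells at 3 hpi, then 0.54). The summed level of 10 B cell markers was 4066 to 4410 CPM at 0 hpi and 124 to 185 CPM at 120 hpi, and that of 10 macrophage markers was 77.0 to 86.5 CPM and 19500 to 31620 CPM. Reads on Cebpa were found in all groups. They do not identify the construct, since reads that carry a change of 1 residue are counted on the same gene. Mean Cebpa levels were 41.8 CPM in WT, 38.3 CPM in R35A and 39 CPM in R35K cells at 0 hpi. In the same order they were 107, 54.8 and 88.5 CPM at 1 hpi and 39.6, 53.3 and 86.5 CPM at 18 hpi. The part of these differences in the results below was not tested. In bulk RNA, fewer cells of a type and less RNA of a gene per cell cannot be told apart.

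In the mm10 annotation (GENCODE vM21), the leukotriene genes are Alox5 (chr6:116410077-116461178, - strand), Alox5ap (chr5:149264767-149288153, + strand), Lta4h (chr10:93453411-93484875, + strand) and Ltc4s (chr11:50236461-50238616, - strand). The prostanoid genes are Ptgs1 (chr2:36230426-36252272, + strand), Ptgs2 (chr1:150100031-150108227, + strand), Ptges (chr2:30889471-30929863, - strand) and Hpgds (chr6:65117293-65144908, - strand), and Pla2g7 lies at chr17:43568098-43612201, + strand. Values are for whole genes, the sum over their exons.

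The 2 cyclooxygenase genes encode enzymes for the same step, and Ptgs1 but not Ptgs2 had called differences between the constructs (given below), so the 250 bases before their RefSeq start sites (GRCm38.p6) are shown, 5′ to 3′ on the plus strand, with matches to 3 motifs in capitals. Neither window overlaps an exon of its own gene, and 183 of the 250 bases of the Ptgs2 window lie in exons of Ptgs2os, a gene on the opposite strand. The Ptgs1 window is at chr2:36230176-36230425 and the Ptgs2 window at chr1:150099781-150100030.
Ptgs1: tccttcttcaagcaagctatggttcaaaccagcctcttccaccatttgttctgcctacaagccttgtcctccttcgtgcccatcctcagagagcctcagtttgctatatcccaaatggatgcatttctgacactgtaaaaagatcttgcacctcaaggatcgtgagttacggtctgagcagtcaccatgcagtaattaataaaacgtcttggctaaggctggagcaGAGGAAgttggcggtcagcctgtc
Ptgs2: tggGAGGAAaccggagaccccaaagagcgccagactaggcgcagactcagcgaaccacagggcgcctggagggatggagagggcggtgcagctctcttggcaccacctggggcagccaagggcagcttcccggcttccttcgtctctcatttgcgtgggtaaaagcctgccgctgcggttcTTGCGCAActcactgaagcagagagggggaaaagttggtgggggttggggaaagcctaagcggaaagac
The motifs searched on both strands were TTGCNNAA for C/EBP, GAGGAA for PU.1, the partner of C/EBPα in myeloid cells, and TGANTCA for AP-1. The Ptgs1 window holds the PU.1 letters 24 bases upstream of the start. The Ptgs2 window holds the C/EBP match TTGCGCAA 69 bases upstream and the PU.1 letters 247 bases upstream. Of the 9 genes, 8 were found in the RefSeq promoter table (Alox5ap was not). The PU.1 letters also stand before Alox5 (136 bases), Lta4h (126 bases), Ptges (149 bases) and Hpgds (49 bases), a C/EBP match stands 176 bases before Hpgds, and none of the 3 motifs was found before Ltc4s or Pla2g7. Exons annotated for the same gene cover 178 of the 250 bases of the Hpgds window, 182 of the Pla2g7 window and 84 of the Ltc4s window. Across 32851 promoter windows of the same length, 9.56% held the C/EBP letters, 23.3% the PU.1 letters and 6.75% the AP-1 letters. A match is a run of letters and not a measured binding site.

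Across the 9 genes and the 5 induced timepoints, the change from 0 hpi was a rise in 26 of 45 tests in C/EBPα WT cells (57.8%), where 17.0% of all gene and timepoint tests were rises, and a fall in 3 (6.67%), where 19.8% of all tests were falls. In C/EBPα R35A cells there were 31 rises (68.9%, against 20.0% of all tests) and 5 falls (11.1%, against 23.5%), and in C/EBPα R35K cells 29 rises (64.4%, against 18.3%) and 5 falls (11.1%, against 22.2%). The median log2 fold change of the 9 genes at 1 hpi was 1.01 in WT, 1.29 in R35A and 1.37 in R35K cells, and that of all genes tested lay between -0.04 and -0.01. The genes followed different courses, shown in the plot of levels by time. Alox5ap, Hpgds and Pla2g7 rose within 1 hpi and rose further by 120 hpi, Alox5 rose late, Ptgs1 and Ptgs2 rose early and came down again by 120 hpi, Ptges rose by 18 hpi and was nearly gone at 120 hpi, Lta4h dipped and came up again, and Ltc4s had few reads.

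**Figure D1:**
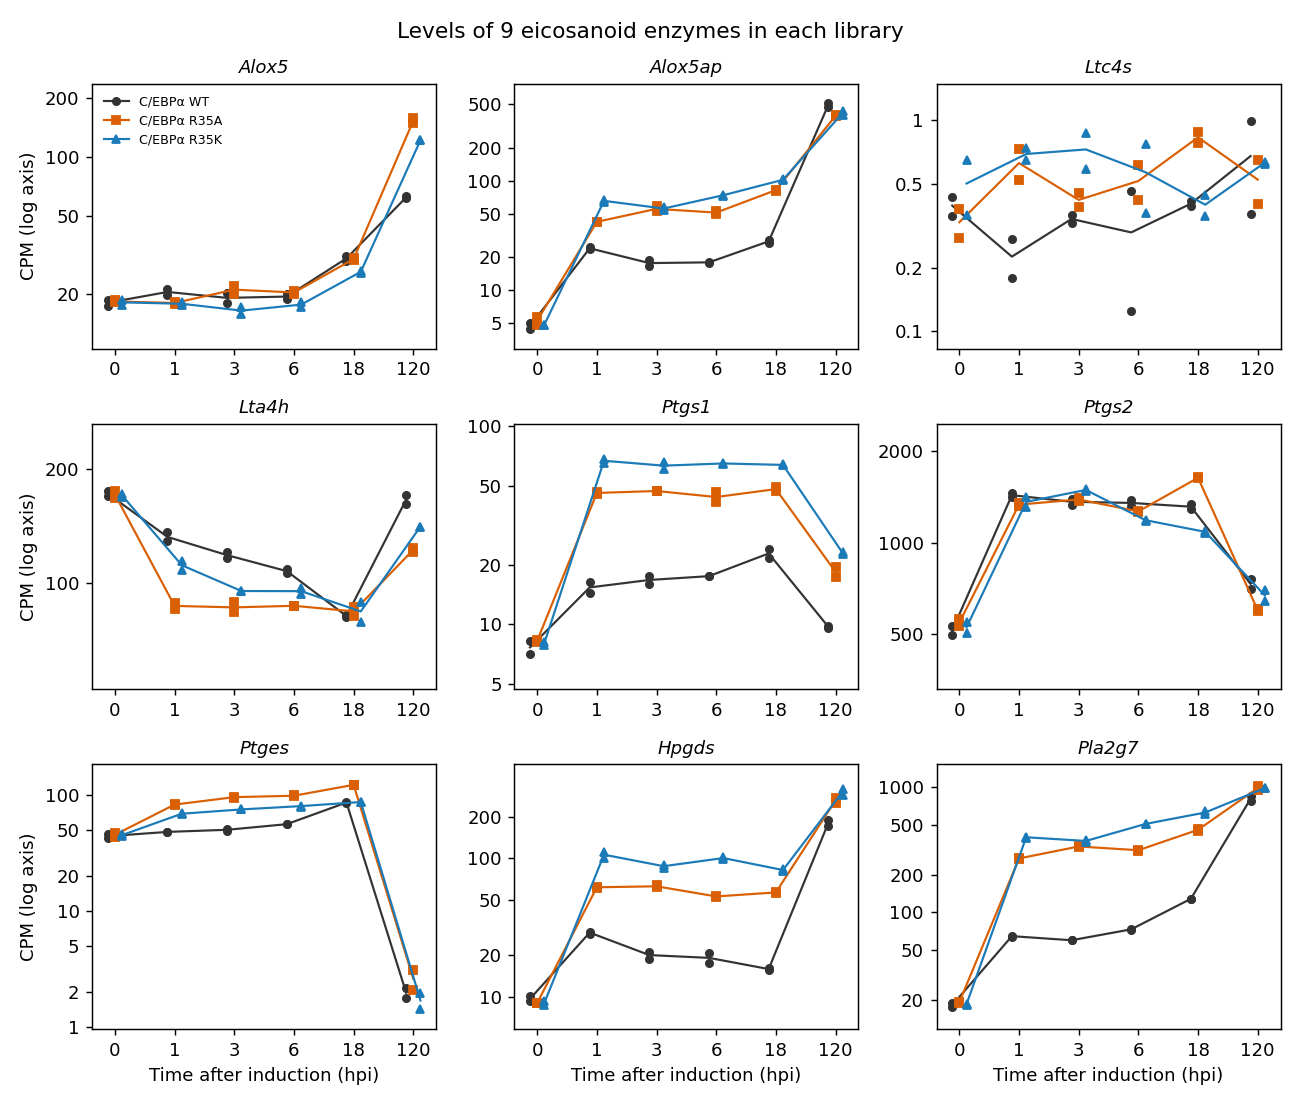
Levels of the 9 enzymes from 0 to 120 hpi (horizontal axis, the 6 timepoints evenly spaced) in CPM on a log axis that differs between panels. Points are single libraries, 2 for each construct and timepoint, and lines join their means. The R35K libraries come from separate tables, and no test sets their levels against those of WT cells. Pla2g7, Alox5ap and Hpgds climb from 0 hpi with the R35A and R35K lines above the WT line from 1 to 18 hpi, while Ptges falls to between 1.44 and 3.12 CPM at 120 hpi with all constructs.

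Pla2g7, the PAF-degrading phospholipase, went from a low level in uninduced cells to one of the highest of the 9 genes. In WT cells, Pla2g7 was at 17.4 and 18.7 CPM at 0 hpi, 64.8 and 63.9 after 1 hr, 59.5 and 59.8 after 3 hr, 71.9 and 74.0 after 6 hr, 128 and 128 after 18 hr and 769 and 844 after 120 hr. In R35A cells, Pla2g7 was at 19.3 and 18.9 CPM at 0 hpi, 269.8 and 268 after 1 hr, 339.7 and 332 after 3 hr, 315 and 311 after 6 hr, 463 and 449.8 after 18 hr and 952 and 1015 after 120 hr. In R35K cells, Pla2g7 was at 18.5 and 18.23 CPM at 0 hpi, 401 and 394 after 1 hr, 376 and 367 after 3 hr, 509 and 508 after 6 hr, 643 and 611 after 18 hr and 988 and 981 after 120 hr. Within a group the 2 libraries lay close together, with a median coefficient of variation of 1.19% over the 18 groups, and at 1 to 18 hpi the R35A libraries lay above all WT libraries of those times. The rise at 1 hpi was 3.56-fold in WT (1.83 ± 0.058 on the log2 scale), 14.1-fold in R35A (3.81 ± 0.05) and 21.6-fold in R35K cells (4.43 ± 0.048). At 120 hpi the 3 constructs had converged, at 44.7-fold, 51.4-fold and 53.6-fold above their own 0 hpi. At 18 hpi WT cells had thus 15.9% of their own 120 hpi level, R35A cells 46.4% and R35K cells 63.7%. A gene on the opposite strand that overlaps an exon of Pla2g7, 1700071M16Rik, had 7 to 388 reads per library against 246 to 14106 for Pla2g7, and the strand setting of the counts is not given in the sources used here.

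In the leukotriene branch, Alox5ap rose first and Alox5 late. In WT cells, Alox5ap was at 5.02 and 4.42 CPM at 0 hpi, 24.8 and 23.7 after 1 hr, 16.7 and 18.9 after 3 hr, 17.8 and 18.3 after 6 hr, 27.3 and 28.8 after 18 hr and 515 and 473 after 120 hr. In R35A cells, Alox5ap was at 4.84 and 5.77 CPM at 0 hpi, 42.5 and 42.2 after 1 hr, 52.6 and 58.5 after 3 hr, 52.9 and 49.9 after 6 hr, 83.5 and 81.3 after 18 hr and 396 and 389.7 after 120 hr. In R35K cells, Alox5ap was at 4.88 and 4.85 CPM at 0 hpi, 66.7 and 64.8 after 1 hr, 54.3 and 57.6 after 3 hr, 74.7 and 73.4 after 6 hr, 104 and 101 after 18 hr and 432 and 401 after 120 hr. All libraries from 1 hpi on lay above all 0 hpi libraries. Alox5ap rose 5.12-fold by 1 hpi in WT cells (2.36 ± 0.11, adjusted p = 1.03e-36) and 104-fold by 120 hpi (6.71 ± 0.069), the largest rise of the 9 genes in each construct. The R35A and R35K cells were 73.2-fold and 85.5-fold above their 0 hpi at 120 hpi. At 18 hpi, however, WT cells had 5.68% of their 120 hpi level, R35A cells 21.0% and R35K cells 24.6%.

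Alox5, the lipoxygenase that works with Alox5ap, kept its uninduced level for hours. In WT cells, Alox5 was at 18.7 and 17.6 CPM at 0 hpi, 21.2 and 19.9 after 1 hr, 18.0 and 20.3 after 3 hr, 20.1 and 18.9 after 6 hr, 31.3 and 29.7 after 18 hr and 61.6 and 63.1 after 120 hr. In R35A cells, Alox5 was at 18.18 and 18.6 CPM at 0 hpi, 18.21 and 17.9 after 1 hr, 22.1 and 20.1 after 3 hr, 20.0 and 20.9 after 6 hr, 30.1 and 30.5 after 18 hr and 158 and 148 after 120 hr. In R35K cells, Alox5 was at 17.7 and 18.7 CPM at 0 hpi, 18.18 and 17.6 after 1 hr, 15.9 and 17.2 after 3 hr, 17.2 and 18.24 after 6 hr, 26.4 and 25.7 after 18 hr and 122 and 122 after 120 hr. None of the changes at 1, 3 and 6 hpi was called in any construct (log2 fold changes between -0.13 and 0.20). At 18 hpi Alox5 rose in WT (0.75 ± 0.08) and R35A cells (0.72 ± 0.076), and the change in R35K cells was below the fold threshold (0.52 ± 0.078). By 120 hpi it rose 3.43-fold in WT, 8.30-fold in R35A and 6.70-fold in R35K cells, and both WT libraries at 120 hpi lay below both R35A libraries of that time. With DESeq2's scaling the R35K change at 18 hpi was 0.60 and passed. Per kilobase of exon, Alox5ap stood at 0.752 times the level of Alox5 in WT cells at 0 hpi, at 3.41 times at 1 hpi and at 22.9 times at 120 hpi. In R35A cells at 120 hpi the ratio was 7.42 and in R35K cells 9.88.

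The enzymes that use leukotriene A4 did not share this course. Lta4h was already well expressed in uninduced cells. In WT cells, Lta4h was at 174 and 169 CPM at 0 hpi, 136 and 129 after 1 hr, 116 and 121 after 3 hr, 109 and 106 after 6 hr, 82.7 and 81.4 after 18 hr and 161 and 170 after 120 hr. In R35A cells, Lta4h was at 167 and 174 CPM at 0 hpi, 85.5 and 88.9 after 1 hr, 89.1 and 83.8 after 3 hr, 87.1 and 87.4 after 6 hr, 82.2 and 86.6 after 18 hr and 121 and 124 after 120 hr. In R35K cells, Lta4h was at 169 and 171 CPM at 0 hpi, 114 and 108 after 1 hr, 95.3 and 95.6 after 3 hr, 97.0 and 93.6 after 6 hr, 89.5 and 79.2 after 18 hr and 141 and 141 after 120 hr. Its level thus dipped after induction in each construct and had come up again at 120 hpi, to near its start in WT cells. In WT cells it fell by 0.68 (SE 0.042) at 6 hpi and by 1.07 (SE 0.043) at 18 hpi on the log2 scale, while in R35A cells it fell by 0.97 (SE 0.042) already at 1 hpi and in R35K cells by 0.61 (SE 0.045). At 120 hpi its log2 fold change was -0.05 ± 0.041 in WT, -0.48 ± 0.041 in R35A and -0.27 ± 0.045 in R35K cells, none of them called. Its fall in R35K cells at 1 hpi lay just past the fold threshold and was -0.53 with DESeq2's scaling, -0.55 with limma and -0.56 in the fit of 36 libraries, without R35K replicate 2 of 1 hpi or without either R35K library of 120 hpi, none of them called.

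Ltc4s had 2 to 17 reads in a library. In WT cells, Ltc4s had 5 and 6 reads at 0 hpi, 4 and 3 after 1 hr, 5 and 6 after 3 hr, 7 and 2 after 6 hr, 6 and 7 after 18 hr and 12 and 4 after 120 hr. In R35A cells, Ltc4s had 4 and 7 reads at 0 hpi, 13 and 9 after 1 hr, 6 and 7 after 3 hr, 7 and 13 after 6 hr, 12 and 17 after 18 hr and 5 and 9 after 120 hr. In R35K cells, Ltc4s had 6 and 10 reads at 0 hpi, 10 and 12 after 1 hr, 14 and 14 after 3 hr, 6 and 14 after 6 hr, 6 and 7 after 18 hr and 8 and 8 after 120 hr. The groups overlapped widely, and the median coefficient of variation between replicates was 23.2%. With all libraries, 0 of 5 changes from 0 hpi were called in WT and 0 of 5 in R35K cells by edgeR, DESeq2 or limma, and 0 had an unadjusted p no higher than 0.05. One change was called in R35A cells, at 18 hpi (1.30 ± 0.51, adjusted p = 0.0189), and 1 difference between R35A and WT cells, at 1 hpi (1.46 ± 0.60, adjusted p = 0.0352). Neither passed with DESeq2. Without R35A replicate 1 of 0 hpi or R35A replicate 2 of 18 hpi the first was 1.11 and 1.22 and no longer called. Without R35A replicate 1 or WT replicate 1 or 2 of 1 hpi the second was 1.204, 1.77 and 1.19 and no longer called. Without WT replicate 2 of 120 hpi the change in WT cells at 120 hpi was 1.45 and was called. Gm26542 on the opposite strand, which overlaps an exon of Ltc4s, had 2 to 31 reads, so the origin of the Ltc4s reads is uncertain. The SEs of its log2 changes were 0.44 to 0.89. Its differences between mutant and WT cells in the change from 0 hpi reached 1.69, with 0 of 10 called. Differences of that size in Ltc4s could thus go undetected at this depth.

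In the prostanoid branch both cyclooxygenases rose within 1 hpi, and both came down between 18 and 120 hpi. In WT cells, Ptgs2 was at 533 and 495 CPM at 0 hpi, 1409 and 1457 after 1 hr, 1396 and 1330 after 3 hr, 1384 and 1319 after 6 hr, 1286 and 1341 after 18 hr and 706 and 758 after 120 hr. In R35A cells, Ptgs2 was at 560.4 and 530.1 CPM at 0 hpi, 1349 and 1319 after 1 hr, 1400 and 1374 after 3 hr, 1272 and 1262 after 6 hr, 1639 and 1632 after 18 hr and 594 and 604 after 120 hr. In R35K cells, Ptgs2 was at 547 and 505 CPM at 0 hpi, 1312 and 1411 after 1 hr, 1502 and 1480 after 3 hr, 1181 and 1189 after 6 hr, 1094 and 1076 after 18 hr and 640.4 and 699 after 120 hr. In each construct all libraries of 1 to 18 hpi lay above those of 0 and 120 hpi. The rise at 1 hpi was 2.79-fold in WT (1.48 ± 0.033), 2.45-fold in R35A (1.29 ± 0.033) and 2.59-fold in R35K cells (1.37 ± 0.039). At 120 hpi the log2 fold change from 0 hpi was 0.51 ± 0.033 in WT, 0.14 ± 0.033 in R35A and 0.35 ± 0.038 in R35K cells, all below the fold threshold. With DESeq2's scaling the WT value at 120 hpi was 0.67 and passed, as it did when either WT library of 120 hpi was left out.

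Ptgs1 was lower than Ptgs2 throughout and its early rise depended on the construct. In WT cells, Ptgs1 was at 7.07 and 8.19 CPM at 0 hpi, 14.3 and 16.3 after 1 hr, 15.9 and 17.6 after 3 hr, 17.5 and 17.5 after 6 hr, 23.96 and 21.6 after 18 hr and 9.62 and 9.77 after 120 hr. In R35A cells, Ptgs1 was at 8.30 and 8.17 CPM at 0 hpi, 46.4 and 45.7 after 1 hr, 47.0 and 47.1 after 3 hr, 46.3 and 41.4 after 6 hr, 47.2 and 49.0 after 18 hr and 17.4 and 19.4 after 120 hr. In R35K cells, Ptgs1 was at 8.15 and 7.89 CPM at 0 hpi, 68.4 and 65.4 after 1 hr, 65.6 and 60.8 after 3 hr, 65.5 and 64.2 after 6 hr, 63.3 and 64.2 after 18 hr and 22.6 and 23.1 after 120 hr. The uninduced groups overlapped, and from 1 to 18 hpi the R35A libraries lay above all WT libraries. Ptgs1 rose 2.02-fold by 1 hpi in WT (1.01 ± 0.11), 5.59-fold in R35A (2.48 ± 0.088) and 8.33-fold in R35K cells (3.06 ± 0.077). At 120 hpi it was 0.35 ± 0.13 from its start in WT cells, which was not called (adjusted p = 0.0156), 1.16 ± 0.11 in R35A and 1.51 ± 0.097 in R35K cells. Per kilobase of exon, Ptgs2 exceeded Ptgs1 by 57.1 times in WT cells at 0 hpi and by 48.9 to 79.3 times after induction. In R35A cells the ratio went from 56.1 at 0 hpi to between 24.5 and 28.8, and in R35K cells from 55.6 to between 14.4 and 24.8.

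The 2 terminal synthases changed places over the course of BMT. Hpgds, which makes prostaglandin D2, rose at every induced timepoint in every construct. In WT cells, Hpgds was at 9.26 and 10.1 CPM at 0 hpi, 29.5 and 28.6 after 1 hr, 21.2 and 18.9 after 3 hr, 20.6 and 17.6 after 6 hr, 15.5 and 16.2 after 18 hr and 172 and 189 after 120 hr. In R35A cells, Hpgds was at 8.99 and 9.04 CPM at 0 hpi, 62.5 and 61.0 after 1 hr, 63.7 and 61.9 after 3 hr, 52.8 and 53.3 after 6 hr, 57.6 and 55.8 after 18 hr and 251 and 272 after 120 hr. In R35K cells, Hpgds was at 8.75 and 9.31 CPM at 0 hpi, 101 and 111 after 1 hr, 89.7 and 85.7 after 3 hr, 103 and 98.3 after 6 hr, 81.4 and 83.2 after 18 hr and 288 and 318 after 120 hr. In WT cells the level at 18 hpi was below that at 1 hpi, and the main step came between 18 and 120 hpi. The rise was 3.01-fold at 1 hpi and 18.6-fold at 120 hpi in WT (4.22 ± 0.07), 6.85-fold and 29.0-fold in R35A, and 11.8-fold and 33.6-fold in R35K cells.

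Ptges, the inducible prostaglandin E2 synthase, went the other way. In WT cells, Ptges was at 42.2 and 45.7 CPM at 0 hpi, 47.6 and 48.1 after 1 hr, 50.7 and 49.1 after 3 hr, 55.9 and 55.6 after 6 hr, 86.7 and 84.6 after 18 hr and 2.15 and 1.79 after 120 hr. In R35A cells, Ptges was at 43.6 and 46.8 CPM at 0 hpi, 80.8 and 83.7 after 1 hr, 94.6 and 96.0 after 3 hr, 99.1 and 96.9 after 6 hr, 121 and 122 after 18 hr and 3.12 and 2.09 after 120 hr. In R35K cells, Ptges was at 45.5 and 44.4 CPM at 0 hpi, 69.1 and 68.1 after 1 hr, 74.8 and 74.6 after 3 hr, 80.7 and 79.0 after 6 hr, 86.8 and 86.2 after 18 hr and 1.44 and 1.95 after 120 hr. The 6 libraries of 120 hpi, with 18 to 39 reads each, lay below all others. Before that, Ptges rose in R35A cells from 1 hpi (0.86 ± 0.052) and in R35K cells from 1 hpi (0.61 ± 0.054), whereas in WT cells the change was 0.12 ± 0.059 at 1 hpi and was first called at 18 hpi (0.96 ± 0.054). At 120 hpi it had fallen 22.1-fold below 0 hpi in WT (-4.46 ± 0.12), 17.6-fold in R35A (-4.13 ± 0.11) and 26.4-fold in R35K cells (-4.72 ± 0.12). Per kilobase of exon, Hpgds stood at 0.113 to 0.947 times the level of Ptges in all groups up to 18 hpi, and at 120 hpi at 55.8 times in WT, 61.6 times in R35A and 110 times in R35K cells.

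Ordered by CPM per kilobase of exon, the genes at 0 hpi ran Ptgs2 (112 in WT cells), Lta4h (28.2), Ptges (11.2), Pla2g7 (6.21), Alox5 (4.42), Alox5ap (3.32), Ptgs1 (1.96), Hpgds (1.504) and Ltc4s (0.389), and this order was the same in the 3 constructs. At 120 hpi in WT cells Alox5ap (348) and Pla2g7 (278) stood above Ptgs2 (159.7), followed by Hpgds (28.0) and Lta4h (27.1), which cannot be put in order given their replicate spread, and Ptges was last (0.502). In both mutants Pla2g7 was first (338 in R35A, 339 in R35K cells) and Alox5ap the next (277 and 293).

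Most movement fell into the first and the last interval. Between successive timepoints from 1 hpi on, 19 of 108 tests of the 9 genes were rises (17.6%, against 7.09% of all such tests) and 9 were falls (8.33%, against 9.20%). From 1 to 3 and from 3 to 6 hpi, 0 of 54 tests were called in any construct by edgeR, DESeq2 or limma, although without WT replicate 1 of 3 hpi the fall of Hpgds from 1 hpi in WT cells was called (-0.62). In edgeR 26 of these 54 had an unadjusted p no higher than 0.05, and their largest absolute log2 change over a step was 0.60. From 6 to 18 hpi Alox5, Alox5ap, Ptges and Pla2g7 rose in WT cells and Alox5ap rose in R35A cells. Without WT replicate 2 of 18 hpi the WT step of Alox5ap was 0.58 and no longer called, and Alox5 was called in R35A cells without R35A replicate 2 of 6 hpi (0.60) and in R35K cells without R35K replicate 2 of 6 hpi (0.60). In R35K cells 0 of 9 were called in that step by the 3 tools, with 7 at an unadjusted p no higher than 0.05 and changes of up to 0.55. From 18 to 120 hpi there were 5 rises and 3 falls in WT, 4 and 3 in R35A, and 5 and 3 in R35K cells. Alox5, Alox5ap, Hpgds and Pla2g7 rose and Ptgs1, Ptgs2 and Ptges fell in this interval in all 3 constructs, and Lta4h rose in WT and R35K cells (in R35A cells also, at 0.61 to 0.68, without any 1 of the 4 R35A libraries of 18 and 120 hpi).

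The arginine 35 mutants were compared with the wild type to see whether they shift the timing of gene activation. At 0 hpi, R35A and WT cells were called different at 0 of the 9 genes by edgeR, DESeq2 or limma, with 1 gene (Ptgs2, 0.09 ± 0.033) at an unadjusted p no higher than 0.05 and differences of up to 0.23 on the log2 scale. Over the 6 timepoints R35A cells were higher in 22 of 54 tests (40.7%, against 7.03% of all tests) and lower in 1 (1.85%, against 6.17%). For the difference in the change from 0 hpi between constructs, 22 of 45 tests were higher in R35A than in WT cells (48.9%, against 6.14%) and 1 was lower (2.22%, against 5.96%), and 20 of 45 were higher in R35K cells (44.4%, against 7.43%) and 0 were lower (0%, against 4.13%), also with DESeq2 and at an unadjusted p. Both mutants were set against the same WT libraries, so the 2 results are not independent. The R35K libraries stand in tables of their own, so R35K and WT cells were tested only through their changes from 0 hpi. Levels of the 2 set side by side have no test. A difference between these sets of libraries that varied with time would remain in the R35K tests and cannot be told apart from the construct.

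Pla2g7 differed between constructs the most. Its change exceeded that in WT cells in R35A cells by 1.98 ± 0.083, 2.41 ± 0.084, 2.02 ± 0.083 and 1.75 ± 0.081 after 1, 3, 6 and 18 hr, and by 2.67 ± 0.079, 2.65 ± 0.079, 2.82 ± 0.079 and 2.31 ± 0.077 in R35K cells. At 120 hpi the difference was 0.20 ± 0.079 and 0.23 ± 0.075, and neither reached 1.5-fold. Hpgds was higher at all 5 timepoints, by 1.19 to 1.93 from 1 to 18 hpi in R35A cells and 2.04 to 2.54 in R35K cells, and by 0.64 ± 0.12 and 0.82 ± 0.12 at 120 hpi. Ptgs1 was also higher at all 5 timepoints, most at 1 hpi (1.47 ± 0.15 in R35A, 2.12 ± 0.15 in R35K cells) and least at 120 hpi (0.82 ± 0.17 and 1.138 ± 0.17). Alox5ap was higher from 1 to 18 hpi, by 0.62 to 1.46 in R35A and 1.47 to 2.04 in R35K cells, with a difference of the opposite sign that was not called at 120 hpi (-0.51 ± 0.15 and -0.32 ± 0.15). Without WT replicate 1 or R35A replicate 1 of 0 hpi, the Alox5ap difference in R35A cells was 0.54 and 0.51 at 1 hpi, no longer called, and -0.61 and -0.64 at 120 hpi, then called. Without WT replicate 2 of 0 hpi, WT replicate 1 of 120 hpi or R35A replicate 2 of 120 hpi, the Hpgds difference in R35A cells at 120 hpi was 0.58, 0.57 and 0.58 and no longer called.

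Alox5 showed the reverse timing, with called differences at 120 hpi and at no earlier timepoint (1.27 ± 0.10, adjusted p = 2.67e-19 in R35A, 0.94 ± 0.10, adjusted p = 8.10e-13 in R35K cells). From 1 to 18 hpi its differences were -0.21 to 0.11 in R35A and -0.19 to -0.09 in R35K cells. Ptges was higher at 1, 3 and 6 hpi in R35A cells (0.74 ± 0.079, 0.89 ± 0.079 and 0.77 ± 0.077) and at 3 hpi in R35K cells (0.59 ± 0.078), where the value was just past the threshold and was not called with the DESeq2 Wald test or size factors (0.58 in both), without the low-count filter (0.57), when any of 7 libraries of other groups was left out (0.54), or without WT replicate 2 of 0 hpi (0.52), WT replicate 2 of 3 hpi (0.57) or R35K replicate 2 of 0 hpi (0.58). Without WT replicate 1 of 0 hpi the Ptges difference in R35K cells was called at 1 hpi (0.63) and 6 hpi (0.60). Lta4h was lower in R35A cells at 1 hpi (-0.59 ± 0.058), a value just past the fold threshold that was not called with DESeq2, with limma or without the low-count filter, nor without WT replicate 2 (-0.57) or R35A replicate 2 of 0 hpi (-0.56), WT replicate 1 of 1 hpi (-0.56) or R35A replicate 1 (-0.56) or 2 (-0.58) of 1 hpi. Leaving out any of the 8 libraries of 18 and 120 hpi, which hold no Lta4h value of this test, also ended the call (-0.55), so that it was lost for 13 of the 24 libraries. Ptgs2 was called in none of the 10 tests by edgeR or DESeq2, nor in R35A cells by limma. Of its 10 differences 8 had an unadjusted p no higher than 0.05, and they ran from -0.37 to 0.23 in R35A and -0.27 to 0.14 in R35K cells. Ltc4s was called in none of 10 by the same tools, with 0 at an unadjusted p no higher than 0.05, and its differences had SEs of 0.78 to 0.89.

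**Figure D2:**
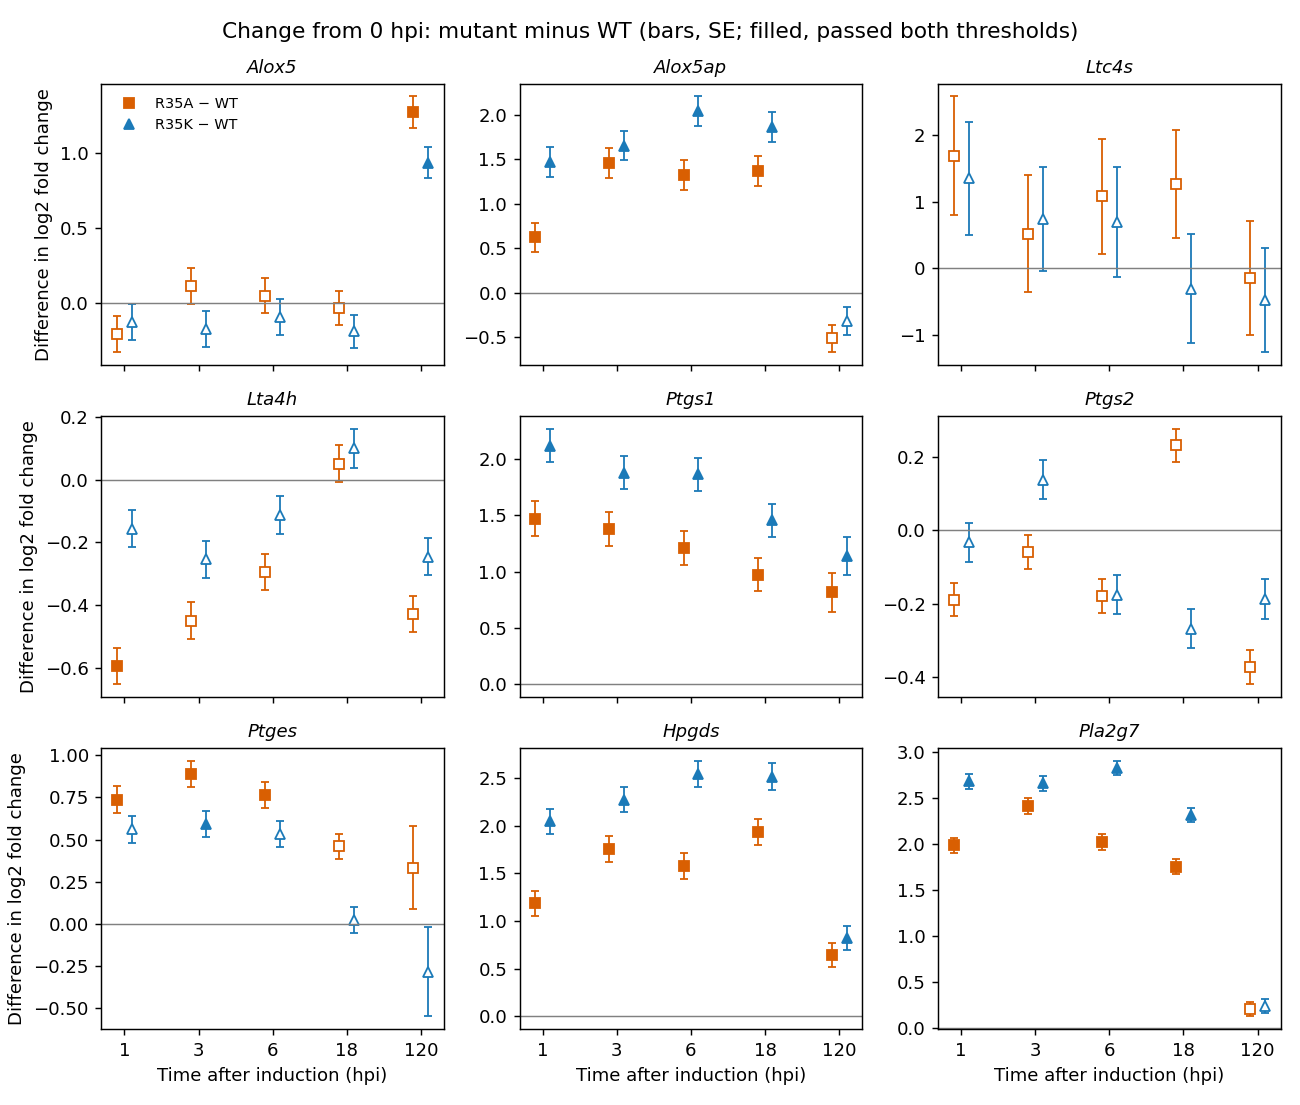
Difference in log2 fold change from 0 hpi between each mutant and WT cells (vertical axis, log2 units) for the 9 enzymes at the 5 induced timepoints. Bars are SEs of the edgeR fits, and filled points passed both thresholds. Pla2g7, Hpgds, Ptgs1 and Alox5ap lie above 0 from 1 to 18 hpi with both mutants, Alox5 at 120 hpi, and no Ptgs2 or Ltc4s point is filled.

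Markers of other cells moved with several of these genes. The summed level of 10 fibroblast markers, which MEF feeders express, was 2316 CPM at the start, 5631 CPM after 18 hr and 188 CPM after 120 hr in WT cells, 2453 CPM at the start, 3922 CPM after 18 hr and 614 CPM after 120 hr in R35A cells and 2365 CPM at the start, 2893 CPM after 18 hr and 497 CPM after 120 hr in R35K cells. All 10 rose by 1 hpi in WT cells (median log2 fold change 1.04), and all 10 fell by 120 hpi (median -4.56), as did 8 of 10 in R35A (-3.03) and R35K cells (-3.29). Ptges and the summed fibroblast markers thus both rose before 120 hpi and fell at 120 hpi. The markers summed to 4575 CPM in R35A and 4443 CPM in WT cells at 1 hpi, and to 4035 and 5071 CPM at 3 hpi. Ptges was higher in R35A than in WT cells at both times (0.78 at 1 hpi and 0.93 ± 0.051 at 3 hpi). The part of feeder RNA in the Ptges values was not tested. Ptgs2 rose by 1 hpi and came down by 120 hpi as these markers did. Its 120 hpi level was not below that at 0 hpi in any construct. The part of feeder RNA in the Ptgs2 values was not tested.

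The summed macrophage markers were higher at 1 hpi than at 0 hpi and highest at 120 hpi, as were Alox5ap, Hpgds and Pla2g7. In WT cells their sum was 82.8 CPM at the start, 1019 CPM after 1 hr, 1026 CPM after 18 hr and 19670 CPM after 120 hr. In R35A cells it was 77.5, 4364, 4181 and 30080 CPM, and in R35K cells 86.0, 9070, 6203 and 26820 CPM. At 18 hpi the sum was thus near its 1 hpi level in WT cells and lower in both mutants. Lyz2 alone stood at 628 CPM at 1 hpi and 524 CPM at 18 hpi in WT cells. It stood at 2820 and 2300 CPM in R35A and at 5890 and 3250 CPM in R35K cells. Csf1r, another of the 10 markers, stood at 116 CPM at 1 hpi and 149 CPM at 18 hpi in WT cells. Its levels at these times were 550 and 627 CPM in R35A and 1110 and 1090 CPM in R35K cells. Each library of 18 hpi was above those of 1 hpi for Pla2g7 in all constructs and for Alox5ap as well. At 1 hpi 9 of the 10 macrophage markers had risen in WT cells (median log2 fold change 3.58), and all 10 in R35A (5.38) and R35K cells (6.26). At 18 hpi the medians were 3.64 in WT, 5.79 in R35A and 5.89 in R35K cells. Mast cells and basophils also express Alox5, Ltc4s and Hpgds. Their 10 markers summed to 5.91 to 34.0 CPM, of which the basophil protease gene Mcpt8, with reads in all 18 groups, took up to 33 CPM (665 reads). Of the 10, 5 to 8 were at 3 reads or fewer, and the mast cell receptor gene Fcer1a had no read in 17 of the 18 groups and at most 1 read in a library. Neutrophil markers, most of them of granule proteins, summed to 49.9 to 65.6 CPM at 0 hpi and 2073 to 2558 CPM at 120 hpi, although 6 or 7 of the 8 or 9 tested fell there. Platelet markers, which matter for Ptgs1 and Tbxas1, summed to 18.0 to 21.4 CPM at 0 hpi and 40.7 to 514 CPM at 1 to 18 hpi. At 120 hpi they summed to 327 to 672 CPM, although of 5 tested 2 rose and 2 fell in WT cells. In R35A and R35K cells 2 rose and 3 fell there. The 4 eosinophil markers stayed at 8.25 CPM or less. The part of these cells in the levels of the 9 genes was not tested.

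**Figure D3:**
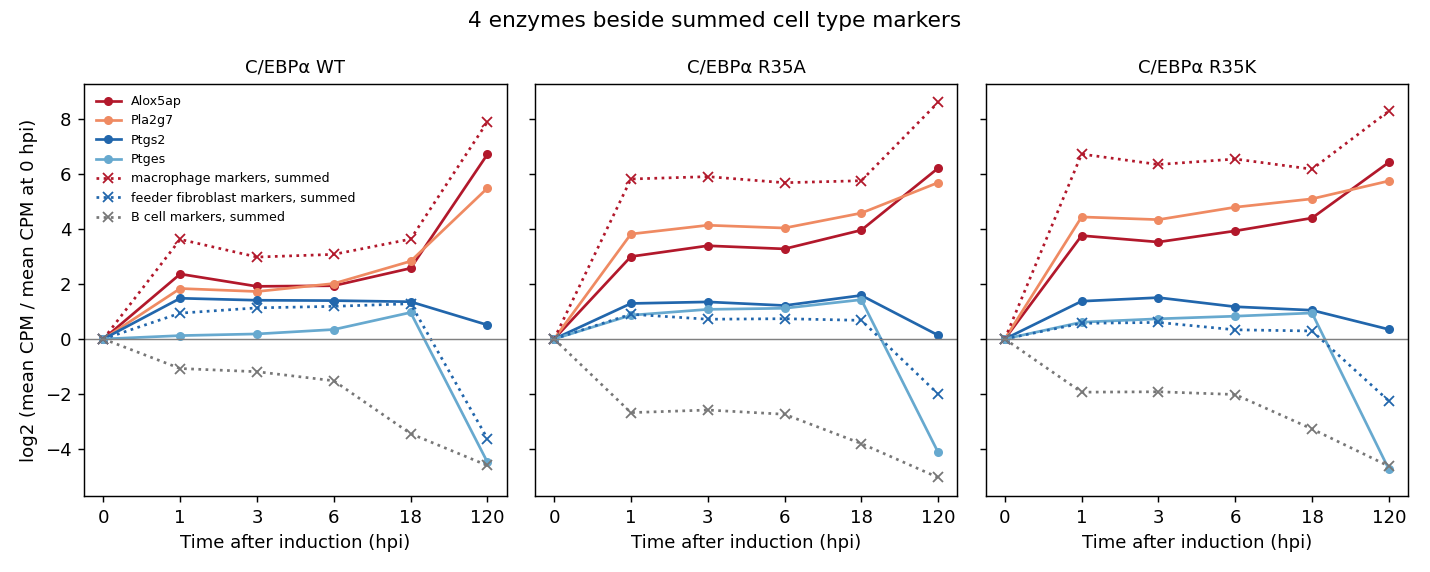
Log2 ratio to 0 hpi of the mean CPM of Alox5ap, Pla2g7, Ptgs2 and Ptges beside the summed CPM of 10 macrophage, 10 feeder fibroblast and 10 B cell markers, at each timepoint (horizontal axis) and construct (panels). Alox5ap, Pla2g7 and the macrophage sum are all above 0 from 1 hpi and highest at 120 hpi. The macrophage sum, much of it Lyz2, does not climb between 1 and 18 hpi. Ptges and the feeder sum end below 0 at 120 hpi, and Ptgs2 ends above 0.

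The genes whose course was most like that of a member over the 12 WT and R35A group means, among 7277 genes spanning at least 4-fold, were Adam8 for Alox5ap (Pearson r = 0.998), Fth1 for Pla2g7 (0.997), Fabp7 for Ptges (0.996), Casp4 for Hpgds (0.995), Serpinb10 for Alox5 (0.990) and Slc22a4 for Ptgs1 (0.982). Lta4h, Ltc4s and Ptgs2 spanned less than 4-fold. Among the members themselves, Alox5ap went with Hpgds (r = 0.96) and Pla2g7 (0.96), and Lta4h ran against Ptgs1 (-0.93) and Alox5 against Ptges (-0.83). These correlations are descriptions over 12 means of the same cultures and have no test.

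Of 58 other genes of eicosanoid and PAF metabolism, 57 were in the tables and 49 were tested. At 120 hpi, 22 of 49 were higher and 13 lower than at 0 hpi in WT cells (23.1% and 40.3% of all genes), 24 and 9 of 49 in R35A cells (24.2% and 39.0%), and 23 and 11 of 46 in R35K cells (25.4% and 38.5%). Over all timepoints, 35 of 245 differences between R35A and WT cells in the change from 0 hpi were higher (14.3%, against 6.14% of all tests) and 14 lower (5.71%, against 5.96%), and 37 (15.1%, against 7.43%) and 7 (2.86%, against 4.13%) of 245 between R35K and WT cells. At 1 hpi the counts were 7 higher and 6 lower in R35A cells and 8 and 4 in R35K cells.

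Among the terminal prostanoid synthases, 2 of 5 tested rose and 2 fell at 120 hpi in each construct. Tbxas1, which makes thromboxane A2, went from 0.969 ± 0.271 CPM at 0 hpi to 151 ± 3.18 CPM at 120 hpi in WT cells (7.28 ± 0.12). Ptgis, the prostacyclin synthase, fell 47.7-fold (95% counting interval 23.0 to 119), from 198 and 204 reads at 0 hpi to 2 and 5 at 120 hpi, together with Ptges and the fibroblast markers. Also called was Fam213b, which has been described as a prostaglandin F synthase and is named here outside the rule for named genes (3.80 ± 0.095). Ptges2, another prostaglandin E2 synthase, was not called (-0.27 ± 0.1), and Ptgds, another prostaglandin D2 synthase, had too few reads to be tested, and both are also named outside the rule. In both mutants Tbxas1 rose further than in WT cells at 1 hpi (1.80 ± 0.38 in R35A, 3.11 ± 0.38 in R35K cells).

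Upstream of both branches, 2 of 6 tested arachidonate-releasing phospholipases rose and 2 fell at 120 hpi in WT cells. Pla2g15, a lysosomal phospholipase, went from 23.5 ± 1.09 CPM at 0 hpi to 111 ± 7.36 CPM at 120 hpi (2.24 ± 0.064), and Pla2g4c, of the cytosolic group, fell 21.3-fold (interval 11 to 47.2), from 121 and 110 reads to 8 and 1. The cytosolic group did not move as one. Pla2g4a, also of this group, rose 1.74-fold in WT, 2.67-fold in R35A and 2.3-fold in R35K cells at 120 hpi. Pla2g4b was not called in WT cells (0.33 ± 0.48), and both are named outside the rule. The other lipoxygenases had few reads. Alox12 had 12 and 13 reads at 0 hpi and 2 and 0 at 120 hpi in WT cells, and Aloxe3 27 and 25 and then 4 and 3, both called lower. Of the MAPEG relatives of Alox5ap, Ltc4s and Ptges, the glutathione transferase Mgst1 rose (1.91 ± 0.053, from 40.0 ± 0.885 CPM at 0 hpi to 151 ± 6.51 CPM at 120 hpi) and Mgst2, which can also make leukotriene C4, fell (-1.67 ± 0.11, from 26.1 ± 1.85 CPM at 0 hpi to 8.18 ± 1.68 CPM at 120 hpi).

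Of 4 genes for enzymes that process cysteinyl leukotrienes outside the cell, 2 rose in each construct. The dipeptidase Dpep2 rose 298-fold in WT cells (interval 82.0 to 2470), from 1 and 1 reads at 0 hpi to 262 and 233 at 120 hpi, and the gamma-glutamyltransferase Ggt5 went from 0.426 ± 0.397 CPM at 0 hpi to 17.8 ± 1.46 CPM at 120 hpi (5.34 ± 0.25). The others, named outside the rule, were not called in WT cells (Dpep1 -1.29 ± 0.71, Ggt1 0.90 ± 0.70), and Dpep1 fell in R35K cells (-2.17 ± 0.76). The list of 10 inactivation genes had 5 rises and 1 fall. Of the transporters, Abcc1, which exports leukotriene C4, rose (1.08 ± 0.037), and Slco2a1, the prostaglandin uptake carrier, fell in WT cells (-1.74 ± 0.14) but was 0.13 ± 0.099 in R35A and -0.06 ± 0.10 in R35K cells, a difference of 1.86 ± 0.18 and 1.65 ± 0.18 from WT. The summed fibroblast markers at 120 hpi also stood above those of WT cells in the mutants, as given above, with no test.

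Of the leukotriene receptors, 3 of 4 tested rose and 1 fell at 120 hpi in each construct. Cysltr1, the receptor for leukotriene D4, went from 1.01 ± 0.423 CPM at 0 hpi to 111 ± 3.59 CPM at 120 hpi in WT cells (6.78 ± 0.13), and Ltb4r1, the high-affinity receptor for leukotriene B4, from 2.26 ± 0.193 CPM at 0 hpi to 45.8 ± 1.2 CPM at 120 hpi (4.34 ± 0.13). Of 8 prostanoid receptors tested in WT cells, 3 rose and 2 fell. Ptger3, a prostaglandin E2 receptor, went from 0.286 ± 0.00525 CPM at 0 hpi to 32.6 ± 1.06 CPM at 120 hpi (6.79 ± 0.21). Tbxa2r, the thromboxane receptor, went from 128 and 130 reads to 1 and 2 (71.5-fold lower, interval 24.2 to 349), and to 0 in all 4 mutant libraries of 120 hpi (at least 43.6-fold lower in R35A and 42.7-fold in R35K cells, against a floor of 3 reads per library). Of the 7 PAF genes 2 rose and 1 fell in WT cells. The receptor Ptafr went from 2.002 ± 0.166 CPM at 0 hpi to 339.7 ± 11.1 CPM at 120 hpi (7.40 ± 0.084), and Lpcat2, which makes PAF in inflammatory cells, rose (1.56 ± 0.084), while Lpcat1, which can also make PAF, was not called (0.33 ± 0.06) and Pafah1b3, a subunit of an intracellular PAF-degrading enzyme, fell (-1.32 ± 0.084), the last 2 named outside the rule. As for Pla2g7 and Alox5ap, the change of Ptafr and Cysltr1 at 1 hpi exceeded that in WT cells with both mutants, by 2.41 ± 0.27 and 2.16 ± 0.45 in R35A and by 3.16 ± 0.28 and 2.65 ± 0.44 in R35K cells. The change of Tbxa2r and Mgst2 at 1 hpi was lower than in WT cells with both, by -1.91 ± 0.29 and -1.15 ± 0.12 in R35A and by -0.81 ± 0.27 and -0.71 ± 0.12 in R35K cells.

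**Figure D4:**
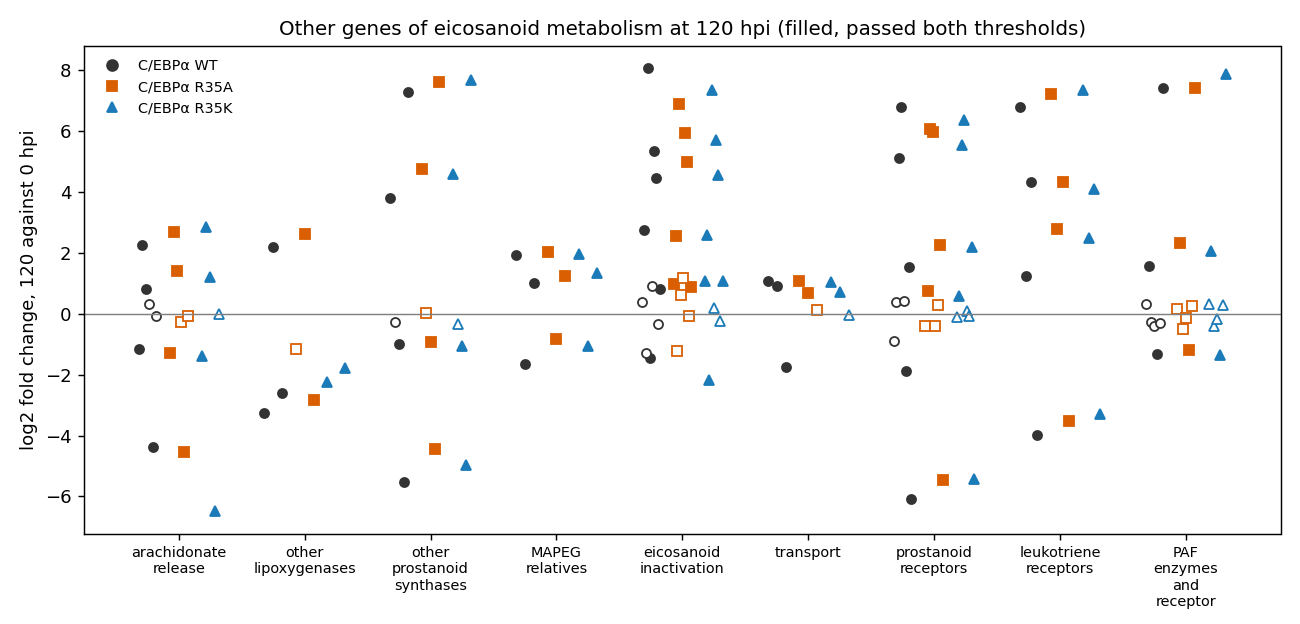
Log2 fold change from 0 to 120 hpi (vertical axis) of the other tested eicosanoid and PAF genes, grouped by role (horizontal axis). Each gene has a point for each construct in which it was tested, filled where the change passed both thresholds. For Tbxa2r in R35A and R35K cells, with 0 reads at 120 hpi, the point stands at the bound of -5.45 and -5.42 given by 3 reads per library. Ptafr, Tbxas1, Cysltr1, Ptger3 and Dpep2 lie far above 0 and Tbxa2r, Ptgis and Pla2g4c far below 0.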

How the data were processed

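RNA-seq was analysed for 36 libraries in 18 groups, mapped to construct and timepoint through their titles, and 0 columns were left unused. Per the labels and methods, the authors prepared stranded libraries from mRNA, sequenced single-end reads of 50 bp, aligned them to mm10 with STAR 2.5.0a and counted reads per gene. The annotation release and the strand setting are not given in the sources used here. The deposited counts are whole numbers, not normalized. The deposited log2 values were made with DESeq2 1.14.1, and 100% of them were recovered within 1% as the log2 of a count divided by its library's size factor, plus 1.

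Here the 24 WT and R35A libraries (16988 genes), the 12 R35K libraries (16434 genes) and, for R35K minus WT, all 36 (17277 genes) were fitted over groups with edgeR 4.0.16 in R 4.3.3 (TMM, filterByExpr, robust quasi-likelihood F tests). Calls needed a fold change of 1.5 and an adjusted p of 0.05 over all genes. The study's methods give this fold and a p without saying whether it was adjusted. SEs were derived from the F statistic. A group with 0 reads was given the floor of 3 reads per library. Counting intervals are exact at 95%, and intervals and floors cover counting error only. The tests were checked on simulated data. The 9 genes and all gene lists were chosen with earlier results of these data known. Named besides the 9 were, in each role of the pathway list, up to 2 genes with the largest WT change at 120 hpi among those passing, and the gene most alike to each member. Alternatives were DESeq2 1.42.0 (Wald test, or its size factors in edgeR), no filter, unadjusted p, a 2-fold threshold, a replicate block, leaving out each library, limma 3.58.1 on the deposited log2 values, and 1 fit over 36 libraries. Replicates of a group differed by more than counting noise in all 18 groups, by 18.3 and 10.1 times in WT cells at 6 hpi and R35K cells at 3 hpi and by 1.13 to 3.68 times in the other 16, and 0 were merged.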

Additional observations from a re-analysis of the deposited data

Results flagged for a closer look

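The following differences between a mutant and WT cells in the change from 0 hpi passed the test of the difference itself (edgeR quasi-likelihood F test, Benjamini-Hochberg adjusted), and for each gene the largest is given. In R35A cells these were 2.41 ± 0.084 for Pla2g7 at 3 hpi (adjusted p = 2.41e-45), 1.93 ± 0.14 for Hpgds at 18 hpi (1.36e-22), 1.47 ± 0.15 for Ptgs1 at 1 hpi (3.27e-14), 1.46 ± 0.17 for Alox5ap at 3 hpi (3.07e-12), 1.27 ± 0.10 for Alox5 at 120 hpi (2.67e-19) and 0.89 ± 0.079 for Ptges at 3 hpi (1.24e-17). Lta4h was lower in R35A cells at 1 hpi, by -0.59 ± 0.058 (1.83e-15), close to the fold threshold. In R35K cells they were 2.82 ± 0.079 for Pla2g7 at 6 hpi (8.11e-54), 2.54 ± 0.14 for Hpgds at 6 hpi (7.76e-30), 2.12 ± 0.15 for Ptgs1 at 1 hpi (3.20e-23), 2.04 ± 0.17 for Alox5ap at 6 hpi (2.93e-19), 0.94 ± 0.10 for Alox5 at 120 hpi (8.10e-13) and 0.59 ± 0.078 for Ptges at 3 hpi (4.17e-10). That Ptges value was close to the fold threshold and was not called with DESeq2, without the low-count filter, or with any of several single libraries left out. Hpgds and Ptgs1 passed at 5 of 5 timepoints in each mutant, Pla2g7 and Alox5ap at 4, and Alox5 at 1. The 2 mutants share the WT libraries.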

How the results depend on the processing

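Of the 387 values of the 9 genes, 0 that were called changed sign under any alternative. With the 2-fold threshold 43 calls were lost. The counts of falls from 0 hpi then went from 5 to 2 in R35A and from 5 to 2 in R35K cells, and the rises between successive timepoints from 19 to 12. The 1 gene lower in R35A than in WT cells (Lta4h at 1 hpi) was no longer called, leaving 0 both in the direct comparison and in the difference in the change from 0 hpi, with DESeq2's Wald test, DESeq2's size factors, no low-count filter, the 2-fold threshold and limma. Leaving out 1 library moved these 2 counts to between 0 and 1 and between 0 and 2. In all, these included, calls lost and gained numbered 6 and 3 with the DESeq2 Wald test, 4 and 3 with its size factors, 4 and 1 without the filter, 3 and 1 of 342 with limma, 1 and 1 of 135 in the fit of 36 libraries, and 0 and 1 at an unadjusted p. Over the 1908 values with 1 library of their own groups left out, 22 calls were lost and 17 gained. Over 6948 values with a library of another group left out, 25 were lost and 12 gained, at Lta4h (4 comparisons), Ptges in R35K minus WT cells at 3 hpi and Ptgs2 in WT cells at 120 hpi, each close to the fold threshold. DESeq2's size factors moved the median of all genes up by 0.16 (WT), 0.13 (R35A) and 0.14 (R35K) at 120 hpi. The alternatives for the steps between successive timepoints, and limma for R35A minus WT, were chosen after seeing the data.

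The replicate numbers showed no pattern shared over all groups, which cannot exclude a pairing of libraries. Over 153 pairs of groups the replicate differences correlated with a median of -0.001 (range -0.427 to 0.294), with 16 above 0.1. With the replicate block 0 of 387 calls changed, with 26 rises in WT cells and 22 differences higher in R35A cells as without it. Ltc4s, at 2 to 17 reads, is limited by depth.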
